A study of Mus musculus with 69 samples.

Results

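The comparison covered the 4 h step into the active phase in young NZB/W F1 mice, a hybrid strain that develops lupus nephritis with age. It held the libraries with the diagnosis Young whose titles start with ZT, without repeat libraries, which gave 8 of the 69 kidney libraries of the series. Zeitgeber time (ZT) counts hours from lights on, so ZT8 lies in the second part of the resting phase and ZT12 is the time of lights off. Groups were young ZT8 (titles ZT8RU, ZT8RL, ZT8LU and ZT8LL) and young ZT12 (ZT12RU, ZT12RL, ZT12LU and ZT120), with 4 libraries each from perfused whole kidneys of untreated female mice of 12 weeks kept in 12 h of light and 12 h of dark. Gene expression was measured by RNA-seq of mRNA, and levels are given as CPM, read counts scaled to library size. Where used for comparison, nephritic kidneys came from NZB/W F1 mice of 30 to 45 weeks at the same times, so that disease and age cannot be told apart, and the other young kidneys came from the remaining times of the day. A further, separately titled set of young kidneys (set 1, titles starting with CR) included 3 at ZT12.

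As background, the circadian clock of each cell runs on a feedback loop. The activators ARNTL (also called BMAL1) and CLOCK drive the Per and Cry genes, whose products return to repress the activators, while REV-ERB proteins (Nr1d1, Nr1d2) repress and ROR proteins activate Arntl. In nocturnal rodents the kidney meets the start of feeding, activity and the daily peak of corticosterone near lights off, and its tubules are known for rhythms in transporters, metabolic genes and glucocorticoid targets.

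The libraries held between 25257530 and 31271479 counts (median 26510801), and Pearson's r of log2 CPM was 0.9548 to 0.9914 within ZT8, 0.9705 to 0.9933 within ZT12 and 0.934 to 0.9842 between the times. Markers of tubules, glomeruli and vessels were present in all 8 libraries. Genes of other tissues stood out in several libraries. Genes of the adrenal cortex (7 genes of steroid synthesis and ACTH response) summed to 4.62 to 9.26 CPM at ZT8 and to 7.52 CPM in ZT12RU, but to 1630 CPM in ZT12RL, 197 CPM in ZT12LU and 1820 CPM in ZT120. The 5 adrenal medulla genes followed the same libraries, with at most 0.421 CPM at ZT8, 0.259 CPM in ZT12RU and 354, 40 and 308 CPM in the others. Hepatocyte genes summed to 12300 CPM in ZT8LU against 179 to 296 CPM in the other ZT8 libraries and 39.4 to 783 CPM at ZT12. ZT8LU also held 58.6 CPM of Xist, which is expressed from the inactive X chromosome of female cells, against 652 to 927 CPM in the others. This level goes against the female sex stated for the mice, and the identity of ZT8LU was not resolved. White adipocyte genes were higher in every ZT12 library, with 207, 427, 423 and 264 CPM in ZT12RU, ZT12RL, ZT12LU and ZT120 against 16.4 to 59.9 CPM at ZT8, and all 6 of 6 passed the test. B cell and plasma cell genes summed to 52.4 CPM in ZT8LL and to at most 8.75 CPM elsewhere. Adrenal RNA therefore moved with time in 3 of 4 ZT12 libraries and adipocyte RNA in all 4, and results are given beside fits that take up the adrenal and liver RNA. No fit takes up the adipocyte RNA. In whole-kidney RNA, fewer cells of a type and less RNA per cell cannot be told apart.

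**Figure D1:**
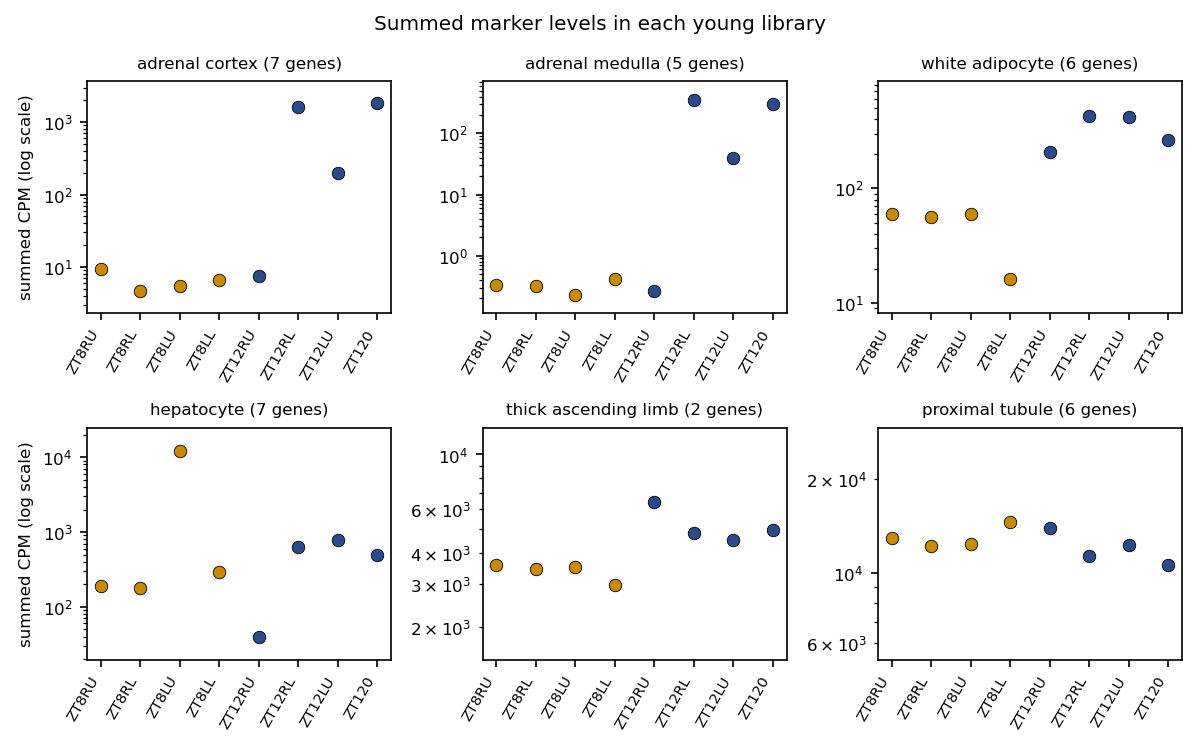
Summed CPM of marker genes (log axis) in each of the 8 young libraries, ZT8 in orange and ZT12 in blue. Adrenal genes are high in ZT12RL, ZT12LU and ZT120 but not in ZT12RU, hepatocyte genes reach 12300 CPM in ZT8LU, and adipocyte genes are higher in all 4 ZT12 libraries.

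Of 14851 genes tested, 1175 (7.91%) differed between ZT12 and ZT8 at an adjusted p of at most 0.05 (edgeR quasi-likelihood test, 4 against 4 libraries). At ZT12, 656 genes (4.42%) were higher and 519 (3.49%) were lower. Most differences were small. The median fold among the genes called was 1.36, 66.4% of them changed by less than 1.5-fold, and a fold of at least 2 was reached by 148 of the higher and 21 of the lower genes. The median log2 difference of all genes was -0.003. CPM did not overlap between the 4 ZT8 and the 4 ZT12 libraries for 2588 genes (17.4%), and for 1145 of the 1175 called. Leaving out ZT12RL, ZT12LU and ZT120 left 1 ZT12 library and 9 calls, and fitting the levels of Cyp11a1 and Alb, 1 adrenal and 1 liver gene, as covariates left 271. Fitting both sets of young libraries without those 3 and ZT8LU, with the set as a covariate, left 222 of 16342 genes tested. Leaving out ZT8LU alone left 1094. In the fit of both sets, ZT12 consisted of ZT12RU and the 3 set 1 libraries, and ZT8 of ZT8RU, ZT8RL and ZT8LL. Hepatocyte genes still summed to 179 to 296 CPM in these ZT8 libraries, against 39.4 CPM in ZT12RU and 21.8 to 30 CPM in set 1 at ZT12. List counts given below stand against 7.91% of all genes called, 4.42% higher and 3.49% lower. Counts from the other fits stand against the 222 of 16342 genes, or against 271 of 14851 with the covariates. Leaving out 1 library gave 495 calls without ZT12RL, 554 without ZT8RL, 576 without ZT12LU, 611 without ZT8LL and 653 without ZT8RU. Every retested call kept its direction, but these genes had been called in the same libraries, so this gives no support. Of the 1175 calls, 1166 kept their direction with the covariates and 1159 in the fit of both sets. The covariate fit has only 8 libraries, and Cyp11a1 was high in 3 of the 4 ZT12 libraries. A call lost there can reflect a wider error as well as a smaller difference.

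Core clock genes turned at this step. Of the 12 members, 5 rose, among them Cry1, Per2, Per1 and Arntl, while Nr1d1 fell and 6 did not pass the test. The share called was 50% against 7.91% of all genes, and the median log2 difference 0.21 against -0.003. Cry1 (chromosome 10, 85131700 to 85185054 in GRCm38), a repressor of the ARNTL and CLOCK complex, stood at 4.10, 4.11, 4.18 and 4.79 CPM in the ZT8 libraries and at 21.9, 22, 21.7 and 22.1 CPM in the ZT12 libraries. The rise of 5.10-fold (log2 difference 2.35, SE 0.07, adjusted p = 2.78e-06) exceeded the spread within either time. It was similar with the adrenal and liver genes as covariates (2.32, adjusted p = 0.000698), and 2.04 (adjusted p = 1.13e-06) when both sets of young libraries were fitted without the 4 libraries highest in adrenal or liver RNA.

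Per2 (chromosome 1, 91415977 to 91459351), the partner of CRY1 in repression, read 62.6, 50.7, 51.2 and 54.9 CPM at ZT8 and 105, 115, 101 and 100 CPM at ZT12. The groups did not overlap and the fold was 1.92 (log2 difference 0.94, SE 0.08, adjusted p = 0.00117). Per1 was less even at ZT8, with 72.0, 80.0, 49.0 and 114 CPM against 130, 145, 160 and 162 CPM at ZT12 (1.90-fold, SE of the log2 difference 0.22, adjusted p = 0.0369, and 0.0938 when the 24 young libraries were fitted together). Per1 lost its call with the adrenal and liver covariates (log2 difference 0.45, adjusted p = 0.392), whereas Per2 kept it (0.80, adjusted p = 0.0237). In the fit of both sets without the 4 libraries neither passed, with 0.58 for Per1 (adjusted p = 0.484) and 0.47 for Per2 (adjusted p = 0.224).

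Nr1d1, which encodes the repressor REV-ERB alpha, fell while its target Arntl rose. Nr1d1 levels were 104, 103, 116 and 83.5 CPM at ZT8 and 34.8, 42.3, 32.4 and 29.4 CPM at ZT12, a 2.92-fold fall (log2 difference -1.55, SE 0.13, adjusted p = 0.00117). Arntl itself was at its lowest level of the day at ZT8, with 1.09, 1.1, 1.08 and 1.11 CPM, and read 2.67, 2.06, 2.62 and 4.58 CPM at ZT12 (2.72-fold, adjusted p = 0.0116). The 4 ZT12 values lay above all ZT8 values, and ZT120 was the highest. Arntl was not called with the covariates (log2 difference 1.15, adjusted p = 0.204) and was called in the fit of both sets (1.13, adjusted p = 0.0012), and Nr1d1 was called in both (-1.45 and -1.94). The remaining members moved little. Clock, Npas2, Per3, Cry2, Nr1d2 and Rora had log2 differences of 0.24, 0.19, -0.09, 0.07, -0.14 and 0.08, and of these only Nr1d2 did not overlap between the times.

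**Figure D2:**
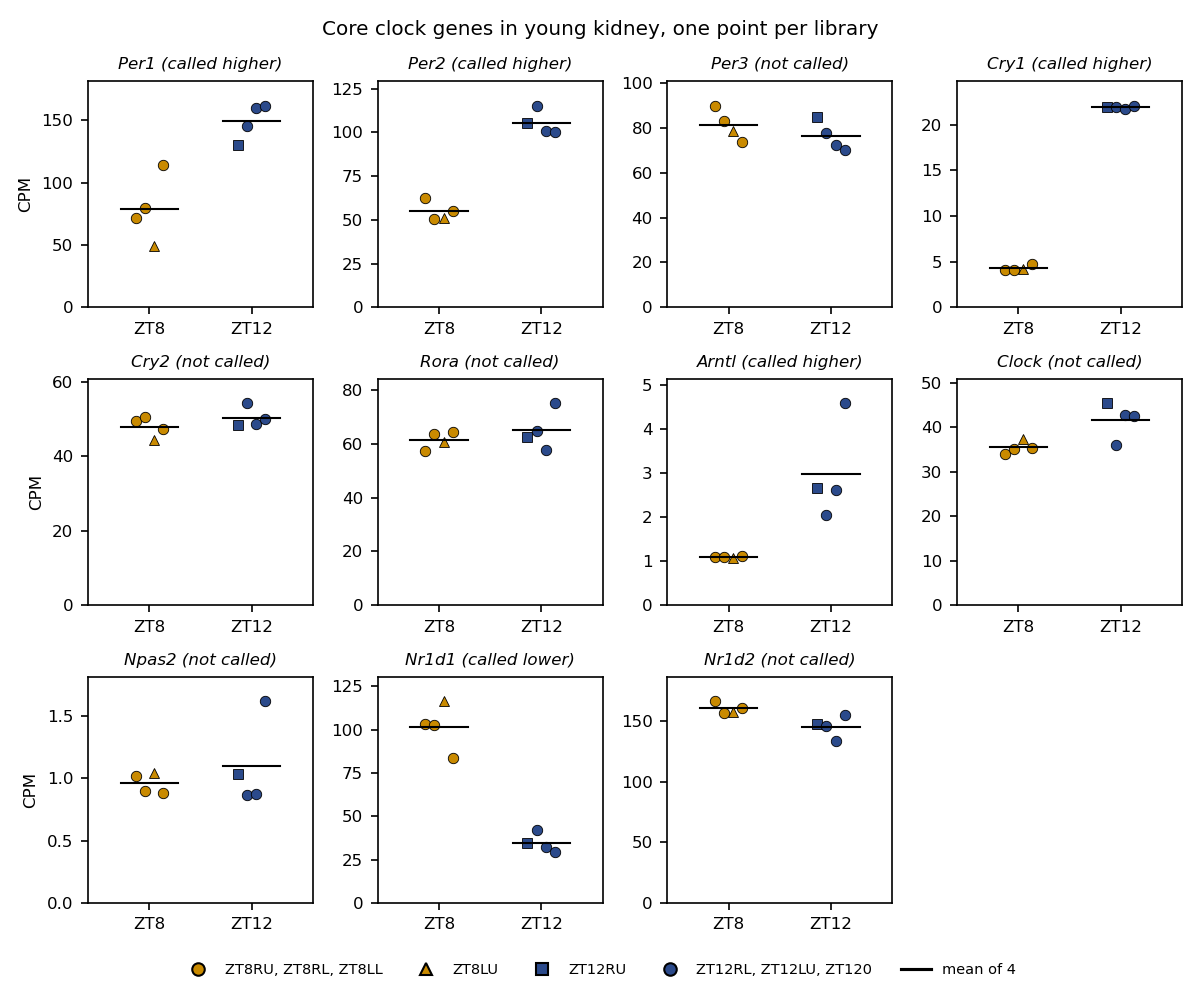
CPM of 11 core clock genes in each young library, with the mean of 4 as a line and axes from 0. Cry1, Per1, Per2 and Arntl are higher and Nr1d1 is lower in all 4 ZT12 libraries, and ZT12RU (square) lies with the other ZT12 libraries.

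Promoter sequences are shown for 4 of the rising clock genes, to place them beside the elements through which the loop is known to act. Of 12 clock and glucocorticoid genes looked up, 9 matched a RefSeq start site in GRCm38.p6, and each window runs from 250 bases before to 50 bases after the start. Capitals mark the matches, on either strand, of a pair of motifs that do not overlap here. CACGTG is the E-box bound by ARNTL with CLOCK. AGGTCA is the core of the element bound by ROR and REV-ERB, and reads in reverse complement where it lies on the other strand.
Per1, chr11:69098699-69098998, plus strand: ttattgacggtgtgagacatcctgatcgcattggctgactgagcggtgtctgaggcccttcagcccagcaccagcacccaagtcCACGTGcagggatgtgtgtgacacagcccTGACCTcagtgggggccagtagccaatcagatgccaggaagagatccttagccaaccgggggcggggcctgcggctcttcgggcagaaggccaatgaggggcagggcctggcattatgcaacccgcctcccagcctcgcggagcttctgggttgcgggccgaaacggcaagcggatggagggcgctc
Cry1, chr10:85185005-85185304, minus strand: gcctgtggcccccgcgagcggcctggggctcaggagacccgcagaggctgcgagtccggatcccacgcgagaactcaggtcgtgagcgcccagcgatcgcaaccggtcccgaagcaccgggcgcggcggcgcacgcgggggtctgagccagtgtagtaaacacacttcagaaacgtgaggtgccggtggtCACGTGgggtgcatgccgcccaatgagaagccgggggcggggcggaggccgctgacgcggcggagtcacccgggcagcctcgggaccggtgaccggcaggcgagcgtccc
Arntl, chr7:113207261-113207560, plus strand: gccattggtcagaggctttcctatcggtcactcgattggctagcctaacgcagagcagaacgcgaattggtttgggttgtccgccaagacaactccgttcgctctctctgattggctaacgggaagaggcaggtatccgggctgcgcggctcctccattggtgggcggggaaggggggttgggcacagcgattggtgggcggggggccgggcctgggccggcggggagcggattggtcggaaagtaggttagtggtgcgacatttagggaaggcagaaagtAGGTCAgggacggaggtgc
Nfil3, chr13:52980990-52981289, minus strand: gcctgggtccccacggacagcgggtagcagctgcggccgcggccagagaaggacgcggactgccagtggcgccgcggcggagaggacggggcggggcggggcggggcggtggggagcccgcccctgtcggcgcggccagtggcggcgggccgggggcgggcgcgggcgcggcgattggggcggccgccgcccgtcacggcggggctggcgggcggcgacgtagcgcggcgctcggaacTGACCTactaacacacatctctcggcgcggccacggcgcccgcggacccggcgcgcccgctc
Per1 and Arntl each have a second start site in the table, and the windows of those other starts, chr11:69099902-69100201 and chr7:113207215-113207514, held no match of either motif and are not printed. In the printed windows the E-box lay 166 bases before the start in Per1 and 60 bases before it in Cry1, and the AGGTCA core lay 137 bases before the start in Per1 and 12 bases before it in Nfil3. In Arntl the core began at base 282 of the window, past the start site. Of all 32851 mouse windows of this length, 7.15% held the E-box and 16.3% held the AGGTCA core. Among genes tested that have a window, the E-box was found in 11.3% of all, 9.72% of those called higher and 17.7% of those called lower. For the AGGTCA core these shares were 15.7%, 16.8% and 20.7%. The genes printed each have a match, whereas the windows of Nr1d1 and Dbp, which fell, held neither motif. A match describes the letters only.

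Over the 6 time points of the young kidneys the clock genes peaked at different times. Per1 and Per2 had their highest means of the day at ZT12 (152 and 107 CPM), whereas Cry1 went on to peak at ZT16 (30.5 CPM) and Arntl and Npas2 at ZT20 (42.3 and 29.1 CPM). Arntl, Clock and Npas2 had their lowest means at ZT8. Dbp, Nr1d2 and Per3 had theirs highest at ZT8, with 214, 164 and 83.3 CPM. Nr1d1 was level from ZT4 to ZT8 (log2 difference -0.01, adjusted p = 0.983), fell into ZT12 and fell again into ZT16 (log2 difference -2.53, adjusted p = 2.22e-11).

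**Figure D3:**
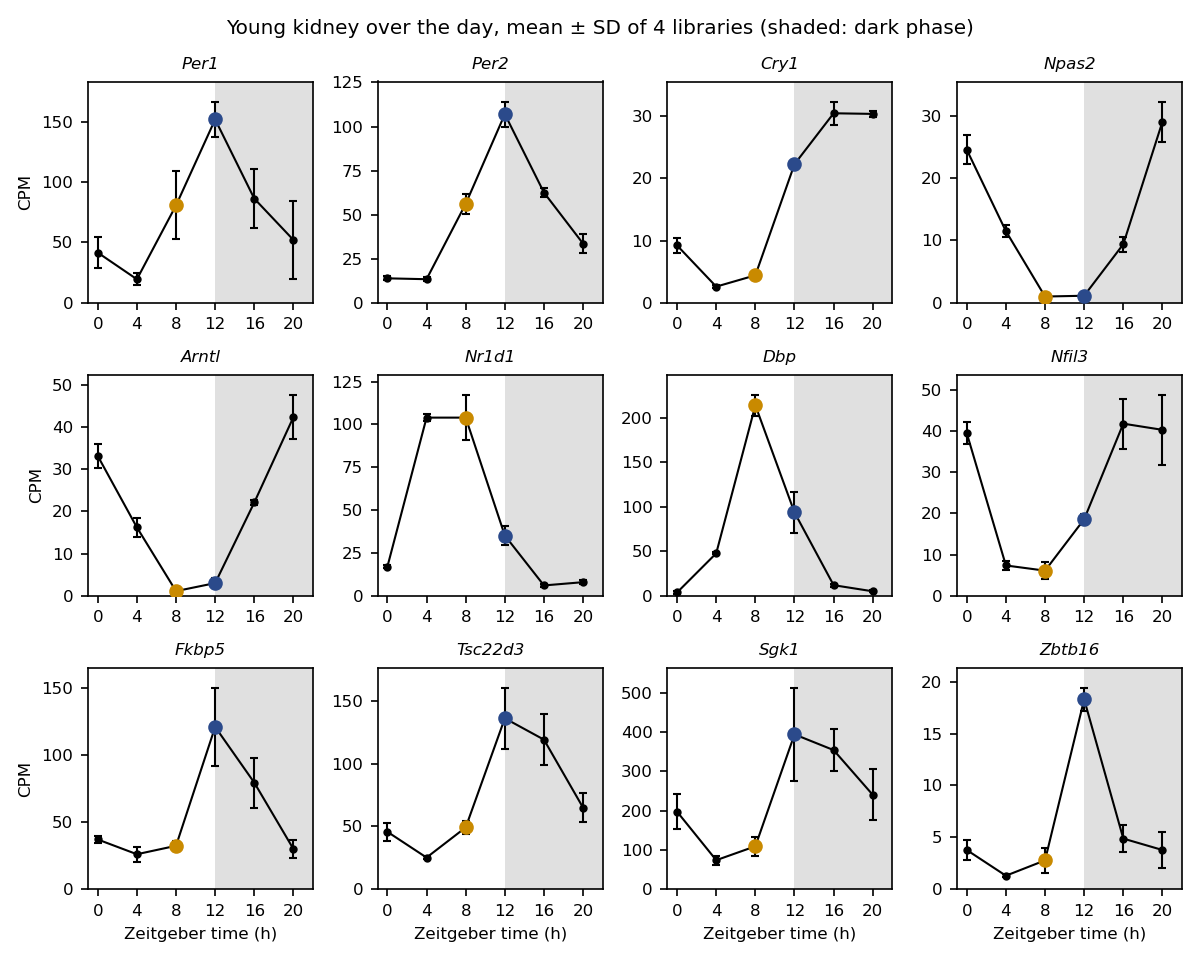
Mean CPM with SD (4 libraries) at 6 zeitgeber times in young kidney, with ZT8 in orange, ZT12 in blue and the dark phase shaded. Per1, Per2 and the glucocorticoid targets Fkbp5, Tsc22d3, Sgk1 and Zbtb16 are highest at ZT12, Cry1 is highest at ZT16, and Arntl and Npas2 are highest at ZT20.

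Clock outputs divided in the same way. Of 16 members, Nfil3, Noct, Usp2, Csnk1e, Wee1 and Cipc rose and Dbp and Bhlhe41 fell, with a median log2 difference of 0.08. The share called was 50%, against 7.91% of all genes. Dbp, a D-box activator under direct clock control, fell 2.27-fold from 219, 219, 194 and 204 CPM to 85.4, 124, 89.5 and 69.9 CPM (adjusted p = 0.00443). Nfil3, which represses through the same D-box, rose 3.06-fold from 4.86, 4.74, 8.92 and 5.40 CPM to 19.9, 17.5, 18.6 and 17.2 CPM (adjusted p = 0.0036). The activator and the repressor of one element moved in opposite directions, and both calls remained with the adrenal and liver covariates (log2 differences -1.35 and 2.20). They were the only members of the list called there. Bhlhe41, Cipc, Usp2, Csnk1e and Wee1 had adjusted p of 0.114, 0.108, 0.212, 0.25 and 0.378. In the fit of both sets 2 members were called higher and 3 lower, Bhlhe41 and Cipc among them.

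Bhlhe41, a repressor of E-box genes, fell from 12.8 to 15.9 CPM at ZT8 to 7.22 to 9.34 CPM at ZT12 (1.62-fold, adjusted p = 0.00875). Noct, which encodes nocturnin, rose 2.94-fold with a wide spread at ZT12, from 10.4 to 16.5 CPM up to 16.3, 28.1, 45.3 and 66.9 CPM (adjusted p = 0.0434). ZT12RU, the lowest of these, lay within the ZT8 range, and Noct lost its call with the covariates (log2 difference 0.71, adjusted p = 0.418). Usp2, a deubiquitinase gene with a strong daily rhythm, rose 1.51-fold (adjusted p = 0.00875) and was lowest in ZT12RU among the ZT12 libraries (207 CPM against 262 to 271 CPM). Cipc, Wee1 and Csnk1e rose 1.23-, 1.23- and 1.32-fold. Tef, Hlf, Bhlhe40, Ciart, Csnk1d, Fbxl21 and Timeless were among those that did not pass, with log2 differences from -0.57 (Fbxl21) to 0.29 (Timeless).

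Many glucocorticoid-induced genes rose. Of 20 members, 11 were called higher and 0 lower, against 4.42% of all genes called higher, and the median log2 difference was 0.88. Zbtb16, a zinc finger repressor that responds steeply to glucocorticoids, rose 6.62-fold from 2.07, 2.74, 4.34 and 1.68 CPM to 17, 18.4, 19.3 and 17.3 CPM (log2 difference 2.73, SE 0.26, adjusted p = 0.00158). Fkbp5, a co-chaperone of the glucocorticoid receptor, rose 3.79-fold from 28.5, 34.0, 35.8 and 28.1 CPM to 79.6, 146, 119 and 134 CPM (adjusted p = 0.00137). Tsc22d3, which encodes GILZ, rose 2.80-fold from 50.4, 50.5, 40.3 and 50.6 CPM to 107, 125, 162 and 143 CPM (adjusted p = 0.00133). In none of these did the ZT8 and ZT12 libraries overlap.

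Sgk1, the kinase that raises sodium channel activity in the collecting duct, rose 3.67-fold from 107, 111, 75.6 and 131 CPM to 285, 296, 449 and 525 CPM (adjusted p = 0.00381). Rhob, a small GTPase gene, rose 1.88-fold from a narrow 59.2 to 61.0 CPM to 89.2 to 131 CPM (adjusted p = 0.0028). Hif3a, Pdk4, Dusp1, Ddit4, Cdkn1a and Per1 were the other members called. The metallothionein genes Mt1 and Mt2 and Lcn2 were below 0 on the log2 scale (-0.17, -0.50 and -0.51) and did not pass. The corticosteroid receptor genes Nr3c1 and Nr3c2 and the converting enzymes Hsd11b1 and Hsd11b2 gave 0 calls of 4.

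Adrenal RNA was present in 3 of the 4 ZT12 libraries. ZT12RU was the lowest ZT12 library for Fkbp5, Tsc22d3, Sgk1, Rhob and Zbtb16. With the covariates 5 of 20 were called, Zbtb16, Fkbp5, Tsc22d3 and Rhob among them (log2 differences 3.32, 1.57, 1.20 and 0.72), and the median log2 difference was 0.46. Sgk1 lost its call there (1.32, adjusted p = 0.0726). In the fit of both sets without the 4 libraries, 5 were also called, with 2.83 for Zbtb16, 1.74 for Fkbp5, 1.61 for Sgk1, 1.21 for Tsc22d3 and 0.77 for Rhob.

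**Figure D4:**
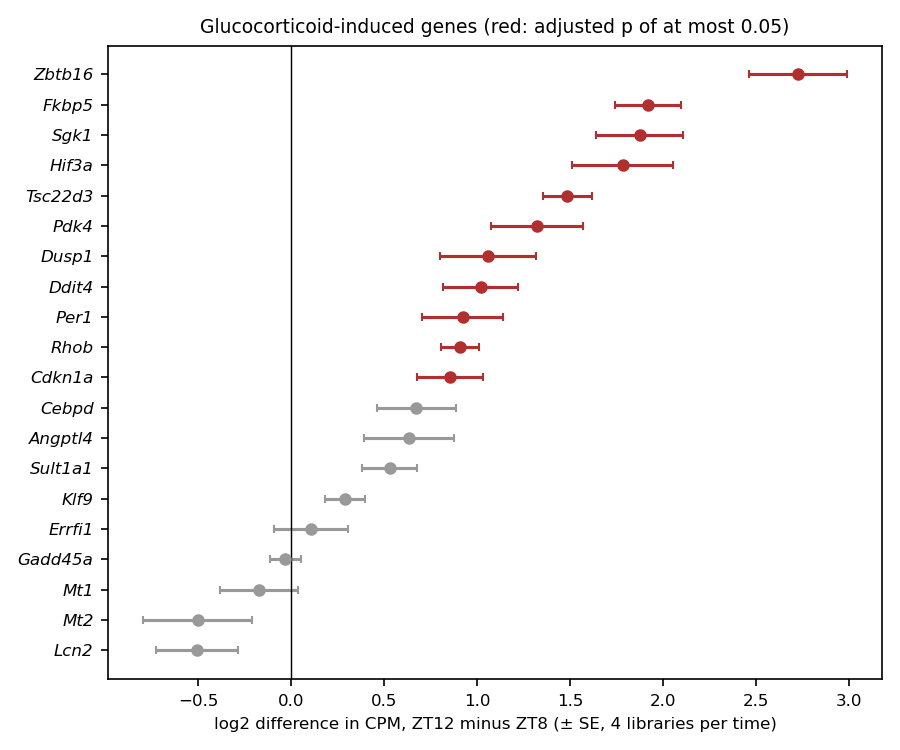
Log2 difference (ZT12 minus ZT8, ± SE, 4 libraries per time) of the 20 glucocorticoid-induced genes, in red where the adjusted p is at most 0.05. The 11 red genes lie right of 0, from Cdkn1a at 0.85 to Zbtb16 at 2.73.

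Chaperone genes rose by smaller steps. Of 20 heat shock genes, 6 were called higher and 0 lower (30%, against 7.91% of all genes, median log2 difference 0.24). Hsph1, which encodes a nucleotide exchange factor of HSP70, went from 109, 121, 120 and 129 CPM to 166, 161, 158 and 179 CPM (1.38-fold, adjusted p = 0.00511). Stip1, which links HSP70 to HSP90, rose 1.23-fold (adjusted p = 0.0104). Hspa1a and Hspa1b, near-identical copies between which reads may be divided uncertainly, rose 1.51- and 1.70-fold (adjusted p = 0.00616 and 0.0137). Cirbp, a cold-inducible RNA-binding protein gene, moved the other way, from 84.1 to 111 CPM at ZT8 to 55.5 to 81.2 CPM at ZT12 (1.46-fold lower, adjusted p = 0.0461). It was called neither with the covariates (log2 difference -0.72, adjusted p = 0.144) nor in the fit of both sets (-0.60, adjusted p = 0.123). Rbm3, the other cold-inducible gene, did not pass (log2 difference -0.21).

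Of 23 genes of ER chaperones and the unfolded protein response, 7 were called higher and 0 lower (median log2 difference 0.16). The share called was 30.4%, against 7.91% of all genes. Hspa5, the main ER chaperone gene, went from 306, 293, 322 and 347 CPM to 438, 406, 421 and 436 CPM (1.34-fold, adjusted p = 0.00612). Hyou1, Creld2 and Manf rose 1.39-, 1.46- and 1.30-fold (adjusted p = 0.00511, 0.00511 and 0.00642). None of the heat shock genes and 1 of the ER genes was called with the adrenal and liver covariates, and 0 of either list in the fit of both sets without the 4 libraries, where Hspa5, Hyou1, Creld2 and Manf had log2 differences of -0.02, -0.01, -0.04 and -0.28.

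Sugar transporters of the proximal tubule fell while other glucose transporter genes rose. Of 9 glucose transport genes, Slc2a2, Slc2a5 and Slc5a2 were lower and Slc2a1 and Slc2a4 higher (55.6% called, against 7.91% of all genes). Slc2a2, which encodes the basolateral GLUT2, fell 1.75-fold from 149, 148, 175 and 186 CPM to 90.0, 91.0, 88.0 and 107 CPM (adjusted p = 0.00301). Slc2a5, the fructose transporter GLUT5, fell 1.67-fold from 111 to 151 CPM to 71.8 to 81.6 CPM (adjusted p = 0.0063). Slc5a2, which encodes the apical glucose carrier SGLT2, fell from 312 to 482 CPM to 244 to 272 CPM (log2 difference -0.52, adjusted p = 0.0385). Slc2a1 and Slc2a4, which encode GLUT1 and the insulin-responsive GLUT4 of fat and muscle, rose 1.34- and 1.20-fold, beside the higher adipocyte markers. With the covariates and in the fit of both sets, Slc2a2 (log2 differences -0.85 and -0.72) and Slc2a5 (-0.84 and -0.70) were called. Slc2a1 (adjusted p = 0.0654 and 0.0795), Slc2a4 (0.585 and 0.529) and Slc5a2 were not.

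Amino acid and peptide transporters gave 8 higher and 7 lower of 51 (29.4% called, median log2 difference 0.09). Slc6a19, the apical carrier of neutral amino acids in the proximal tubule, fell 2.02-fold from 512, 493, 507 and 585 CPM to 221, 273, 235 and 309 CPM (log2 difference -1.01, SE 0.11, adjusted p = 0.00256). Slc7a7, which encodes a basolateral exchanger of cationic amino acids, fell 1.6-fold from 267 to 366 CPM to 182 to 207 CPM (adjusted p = 0.00511). Over all genes 7.91% were called. Slc43a3, in the list by its gene family alone, rose 1.77-fold within narrow ranges, from 16 to 18.4 CPM to 29.5 to 31.5 CPM (adjusted p = 0.000535). Slc36a2, an imino acid carrier also present in fat, rose 7.24-fold (adjusted p = 0.00511) from 0.459 to 2.08 CPM to 7.23 to 11.7 CPM. It averaged 2.32 CPM in the set 1 kidneys at ZT12. With the covariates 3 members were higher and 2 lower, Slc43a3, Slc6a19 and Slc7a7 among them, and in the fit of both sets 0 were called.

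Across all 308 solute carrier genes, 27 were higher and 35 lower (20.1% called, median log2 difference -0.02), with 11 and 8 called with the covariates and 1 and 5 in the fit of both sets. Over all genes, 271 of 14851 were called with the covariates and 222 of 16342 in the fit of both sets. Slc45a3, a sugar carrier gene, rose 1.58-fold and Slc29a3, which encodes a nucleoside carrier, fell 1.44-fold (adjusted p = 0.00137 and 0.00256). Organic ion and drug transporters gave 3 higher and 7 lower of 69 (14.5% called, against 7.91% of all genes). The apical efflux pump gene Abcc2 fell 1.62-fold from 219 to 255 CPM to 128 to 158 CPM (adjusted p = 0.00301), Abcg2 fell 1.31-fold, the organic anion carrier gene Slc22a6 fell 1.29-fold, and Slco3a1 rose 1.46-fold. Mitochondrial carriers gave 2 higher and 3 lower of 43 (11.6% called). Slc25a35 and Slc25a20 (the carnitine carrier) rose by log2 differences of 0.47 and 0.33, and Slc25a36 and Slc25a15 fell 1.42- and 1.23-fold. Slco3a1 and Slc45a3 were called with the covariates and in the fit of both sets. Abcc2 and Slc29a3 were called with the covariates but not in the fit of both sets (adjusted p = 0.203 and 0.11). Abcg2, Slc22a6, Slc25a35, Slc25a20, Slc25a36 and Slc25a15 were called in neither fit.

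Calls among genes of salt, water and mineral handling ranged from 0% of the water list to 24.1% of the sodium and potassium list, against 7.91% of all genes. Of 29 sodium and potassium transport genes, 5 rose, among them Sgk1, Tsc22d3, Slc12a1 and Scnn1a, and 2 fell, while 1 was called with the covariates and 2 in the fit of both sets. Scnn1a, the alpha subunit of the epithelial sodium channel, rose 1.27-fold from 153 to 180 CPM to 194 to 212 CPM (adjusted p = 0.0135, and 0.314 with the covariates). Both markers of the thick ascending limb rose, Umod from 2290 to 2670 CPM to 3320 to 4690 CPM and Slc12a1 from 669 to 1001 CPM to 1178 to 1707 CPM (adjusted p = 0.0159 and 0.0491), each with its highest value in ZT12RU. Water transport gave 0 calls of 11, where Aqp4 had a log2 difference of 0.75 (adjusted p = 0.0953) and Aqp1, Aqp3 and Avpr2 had 0.15, -0.29 and 0.25. Acid-base genes gave 2 higher and 1 lower of 20, with the bicarbonate carrier gene Slc4a7 up 1.59-fold and the carbonic anhydrase gene Car12 down 1.38-fold. Foxi1, the transcription factor of intercalated cells, missed the threshold (log2 difference -0.42, adjusted p = 0.0502). Phosphate, calcium and magnesium genes gave 0 higher and 2 lower of 20, the phosphate carriers Slc34a3 (1.6-fold, adjusted p = 0.00838) and Slc20a2 (1.22-fold). The blood pressure list gave 2 higher of 26 (7.69%), the prostaglandin receptor gene Ptger3 (1.62-fold) and the natriuretic peptide receptor gene Npr1 (1.37-fold). With the covariates Slc34a3 and Ptger3 were called (adjusted p = 0.0498 and 0.0267). Slc4a7, Car12, Slc20a2 and Npr1 were not (0.0782, 0.137, 0.493 and 0.395). In the fit of both sets none of these was called, with adjusted p from 0.115 (Slc34a3) to 0.96 (Npr1).

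Metabolic genes rose most in fatty acid synthesis, and the adipocyte markers rose in the same libraries. Of 19 members, 9 were higher and 1 lower (52.6% called, against 7.91% of all genes, median log2 difference 0.44). Acaca, the gene of the rate-limiting cytosolic acetyl-CoA carboxylase, went from 44.1, 38.4, 35.7 and 25.3 CPM to 73.4, 105, 118 and 89.4 CPM (2.69-fold, adjusted p = 0.00487). Acly, Acacb and Me1 rose 1.61-, 1.70- and 1.38-fold (adjusted p = 0.0028, 0.0028 and 0.00276). With the adrenal and liver covariates 3 of 19 were called, Acly and Acacb among them, and in the fit of both sets 0 of 19, where Acaca, Acly, Acacb and Me1 had adjusted p of 0.377, 0.216, 0.248 and 0.146. At ZT12 the set 1 young kidneys, in which adipocyte markers summed to 68.0 to 78.5 CPM, averaged 30.3 CPM for Acaca and 52.5 CPM for Acacb, both within the ZT8 range, and 248 CPM for Acly and 250 CPM for Me1, both above it. The part of adipocyte RNA in these rises was not tested.

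In the PPAR-alpha and fatty acid oxidation list, 5 of 32 were higher and 3 lower (25% called, against 7.91% of all genes). With the covariates 3 and 0 were called, and 1 and 0 in the fit of both sets. Pdk4, which shuts glucose carbon out of oxidation, rose 2.51-fold from 14.3 to 29.4 CPM to 36.0 to 71.6 CPM (adjusted p = 0.0164, and 0.242 with the covariates). Cd36, a fatty acid carrier gene, rose 2.29-fold from 37.5 to 71.2 CPM to 107 to 136 CPM (adjusted p = 0.00642), with 138 CPM in the set 1 kidneys at ZT12, and was called in both of those fits (log2 differences 1.52 and 1.08). Acsl1 and Acadl rose 1.34- and 1.24-fold. Sterol synthesis gave 1 higher and 2 lower of 25 (12% called). Stard4, which encodes a sterol carrier, fell 1.33-fold, whereas Hmgcs1 rose 1.24-fold. Gluconeogenesis gave 1 call of 10 (10%). Pck1, the rate-limiting gene, rose 1.6-fold from 3318, 4026, 3433 and 4978 CPM to 5557, 6308, 7152 and 6249 CPM (adjusted p = 0.0264, and 0.248 with the covariates). Glycolysis gave 2 higher of 15 (13.3%), Hk2 (5.32-fold from at most 2.21 CPM, with 2.09 CPM in set 1 at ZT12) and Hk1 (1.22-fold).

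Of 18 insulin and nutrient signalling genes, 3 rose and 1 fell (22.2% called, against 7.91% of all genes). Igfbp1, which is repressed by insulin, fell 2.21-fold from 53.5, 52.8, 56.6 and 45.1 CPM to 19.4, 24.1, 26.1 and 24.3 CPM (adjusted p = 0.00133), and its call remained with the covariates (log2 difference -1.23) and in the fit of both sets (-1.49). Foxo3, Foxo1 and Klf15 rose 1.65-, 1.29- and 1.29-fold (adjusted p = 0.0203, 0.0264 and 0.0171), but passed neither with the covariates (adjusted p = 0.168, 0.39 and 0.198) nor in the fit of both sets (0.343, 0.234 and 0.519).

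Immediate early genes gave 5 higher and 0 lower of 24 (20.8% called, against 7.91% of all genes). Their median log2 difference was 0.60, with single values from -0.31 to 3.28. Klf2, Ier5, Ctgf and Klf4 rose 1.61-, 1.49-, 1.61- and 1.51-fold, each without overlap between the times. With the covariates 1 of 24 was called, Ier5, with a list median of 0.29, and Klf2, Ctgf and Klf4 had adjusted p of 0.0917, 0.122 and 0.0988. In the fit of both sets Ier5 and Klf2 were called. Fos and Egr1, the classic members, did not pass. They varied within each time, with 3.01 to 22.1 CPM of Fos at ZT8 and 10.2 to 44.5 CPM at ZT12. Of 14 hypoxia-inducible genes 3 rose (21.4%), Ndrg1 by 1.80-fold, Slc2a1, and Hif1a by 1.17-fold. Of 25 cell cycle genes 3 rose and 0 fell (12% called). These were Ccnd2 (2.00-fold), the inhibitor gene Cdkn1a (1.81-fold) and Wee1, while the median log2 difference of the list was -0.11. Injury and inflammation genes gave 2 higher of 11 (18.2%), Cd14 (1.43-fold) and Krt20, which went from 0.254 to 0.523 CPM to 0.770 to 1.37 CPM. The tubular injury markers Havcr1 and Lcn2 did not pass (log2 differences 0.58 and -0.51).

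Detoxification lists were near the background. Cytochrome P450 genes gave 4 higher and 3 lower of 76, where 3 of the higher were the adrenal enzymes Cyp11b1, Cyp21a1 and Cyp11a1, at most 1.23 CPM at ZT8 and 0.593 CPM in ZT12RU. Cyp2d26 fell 1.31-fold and Cyp20a1 rose 1.22-fold. Conjugating enzymes gave 2 higher and 3 lower of 49, with Ugt8a and Sult1d1 up 1.87- and 1.67-fold and Sult1c2 and Gstt3 down 1.57- and 1.23-fold. The medians were -0.52 and -0.30 with ZT8LU, which held liver RNA, and 0.37 and -0.09 without it, so that the direction of the P450 list rested on that library. The NRF2 antioxidant list gave 1 higher of 16, G6pdx (1.34-fold). Cytosolic ribosomal proteins gave 0 calls of 75, proteasome subunits 0 of 37 and the respiratory chain 1 of 99, Cox11 (log2 difference 0.32, adjusted p = 0.048).

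**Figure D5:**
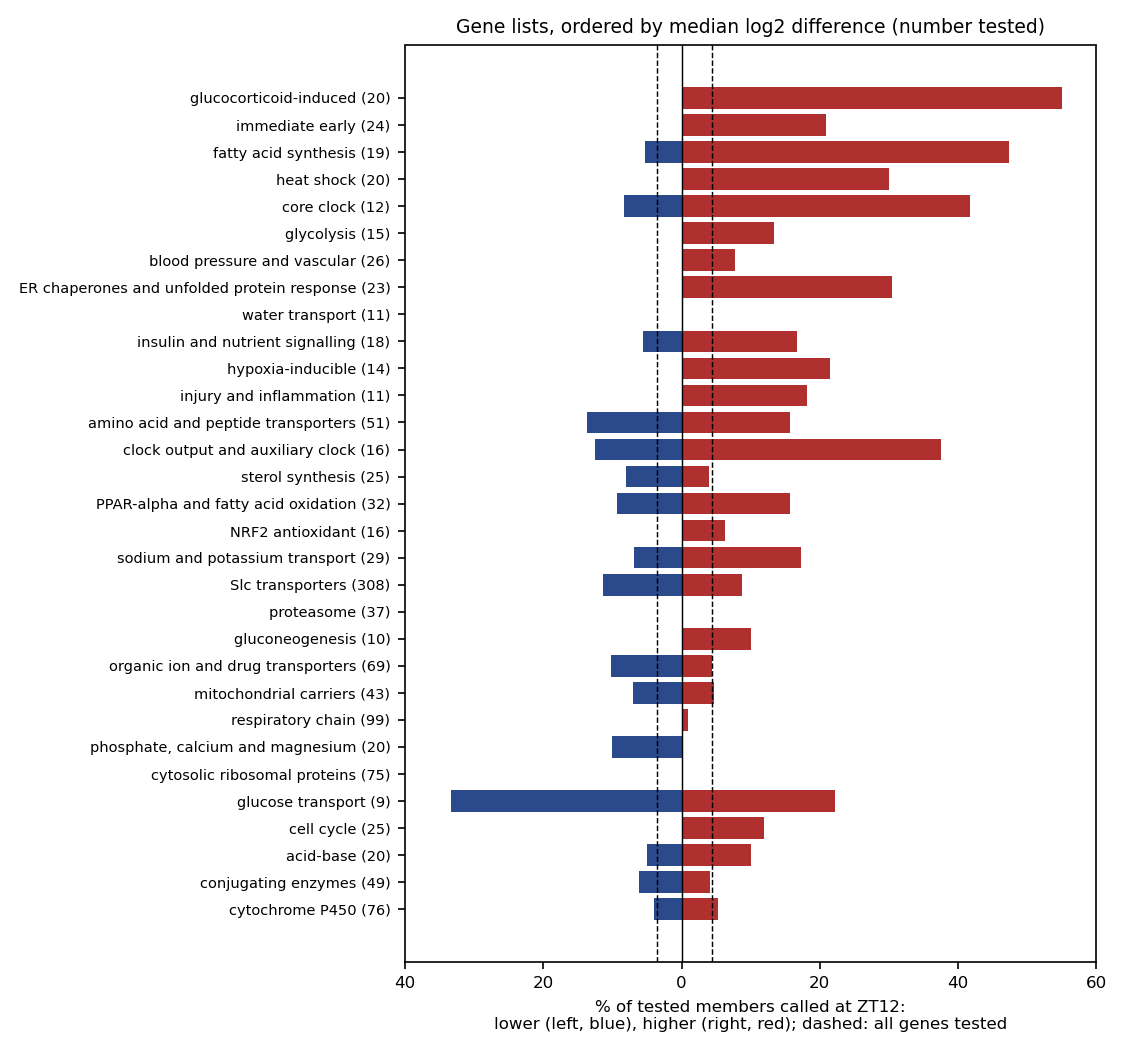
Percentage of tested members of each gene list called lower (left, blue) or higher (right, red) at ZT12, ordered by the list's median log2 difference, with the shares of all genes (3.49% and 4.42%) dashed. Glucocorticoid-induced, fatty acid synthesis and clock lists reach furthest to the right, and ribosomal and proteasome lists show no bar.

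By size, the 10 largest rises without overlap were led by genes of the adrenal and nervous system. Mc2r, the ACTH receptor gene, was at 0 in all ZT8 libraries and at 0.37, 9, 1.07 and 11.2 CPM at ZT12. Dbh, Atp2b3, Dlk1, Peg10, Mgst2, Kcnk3 and Disp2 were likewise highest in ZT12RL and ZT120, and ZT12RU held at most 0.741 CPM of Dbh, Atp2b3, Dlk1, Disp2 and Mgst2. Serpina3c was at 1.19, 2.59, 2.50 and 1.77 CPM against at most 0.274 CPM at ZT8, and averaged 0.263 CPM in the set 1 kidneys at ZT12. White adipocyte markers summed to 207, 427, 423 and 264 CPM in ZT12RU, ZT12RL, ZT12LU and ZT120. Adrenal RNA also moved with time. With the covariates, Mc2r, Dbh, Atp2b3, Dlk1, Peg10, Mgst2, Kcnk3 and Disp2 were not called, with adjusted p from 0.0918 (Mc2r) to 0.808 (Kcnk3). Serpina3c was called there (log2 difference 3.37, adjusted p = 0.0416). In the fit of both sets Serpina3c was not called (2.38, adjusted p = 0.0962). Nor were the other genes named with the covariates, with adjusted p there from 0.455 (Mgst2) to 0.907 (Dlk1). Neither fit takes up adipocyte RNA, and the part of adrenal or adipocyte RNA in single rises was not tested further.

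Genes that rose most in ZT12RU were looked for after the values had been seen, by the ratio of ZT12RU to the highest ZT8 library. Beside Cry1, Zbtb16 and adipocyte genes, they included Gldc, which encodes the glycine cleavage decarboxylase. Gldc read 138, 120, 150 and 184 CPM at ZT8 and 581, 453, 543 and 450 CPM at ZT12 (3.43-fold, adjusted p = 0.00117), with 490 CPM in the set 1 kidneys. Tmem207 rose 2.81-fold and Enox1 2.67-fold, with 12.4 and 8.71 CPM in ZT12RU against at most 3.52 and 2.66 CPM at ZT8.

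The 10 largest falls without overlap were led by Agbl2. Agbl2, which encodes a carboxypeptidase of tubulin tails, fell 3.77-fold from 6.97, 6.34, 5.49 and 6.74 CPM to 1.45, 1.43, 1.55 and 2.35 CPM (adjusted p = 0.00156). Mcm10, a DNA replication gene, fell 3.15-fold and 9030625G05Rik 2.95-fold. Fabp7, a fatty acid binding protein gene, fell 2.73-fold from 6.06 to 8.23 CPM to 2.41 to 2.94 CPM (adjusted p = 0.00134). Dpys fell 2.57-fold, but its highest ZT8 value, 39.5 CPM, was in ZT8LU against 15.8 to 19.1 CPM in the others. Il22ra1 and Amz1 fell 2.25- and 2.21-fold, and Nr1d1, Dbp and Igfbp1 complete the list. With the covariates, Mcm10, 9030625G05Rik, Dpys and Il22ra1 were not called (adjusted p = 0.0569, 0.101, 0.0784 and 0.153). In the fit of both sets they were not called either (0.0535, 0.148, 0.509 and 0.594). Agbl2 and Amz1 were called with the covariates (0.012 and 0.039) but not in the fit of both sets (0.223 and 0.0961). Fabp7, Nr1d1, Dbp and Igfbp1 were called in both fits.

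Among the 4 h steps of the day, ZT8 to ZT12 had the most calls when the 24 young libraries were fitted together. It gave 1251 of 16267 genes (7.69%), 671 higher and 580 lower. ZT20 to ZT0 gave 842 (5.18%), ZT4 to ZT8 804 (4.94%), ZT0 to ZT4 722 (4.44%), ZT12 to ZT16 266 (1.64%) and ZT16 to ZT20 143 (0.879%). Neighbouring steps share the libraries of a time point, and the step included the adrenal genes of ZT12. Leaving out ZT8RL or ZT8LL brought ZT8 to ZT12 down to 681 or 680, below ZT20 to ZT0. The step across lights on, ZT20 to ZT0, shares no library with ZT8 to ZT12. Of the 1175 genes called into lights off it called 195 (16.6%). Among the 656 that had risen, 97 fell and 6 rose, and among the 519 that had fallen, 85 rose and 7 fell.

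In nephritic kidneys the same step was called for many more genes, 5968 of 16074 (37.1%), 2785 higher and 3183 lower, where the young step gave 612 (3.81%) in the same fit of 16 libraries. The difference between the steps was called for 0 genes (0%) by edgeR and by limma, with 3247 at an unadjusted p under 0.05 and a smallest adjusted p of 0.0794, and for 750 by DESeq2. It was called for 300 without ZT12RU, for 181 without the nephritic ZT8 replicate 3 and for 574 without the nephritic ZT12 replicate 3. Of the 1175 young calls, 1077 had the same direction in nephritic kidney and 710 were called there in that direction, which is 60.4% of the young and 11.9% of the nephritic calls, while 12 were called in the opposite direction. B cell and plasma cell markers summed to 17.7 to 153 CPM at ZT8 and 186 to 524 CPM at ZT12 in nephritic kidneys, so that their RNA also moved with time there. Macrophage markers overlapped, with 175 to 594 CPM at ZT8 and 310 to 429 CPM at ZT12.

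The clock genes called in young kidney, other than Arntl, were also called in nephritic kidney. Cry1 rose by 2.73 on the log2 scale in nephritic kidney (adjusted p = 1.37e-09), Per2 by 1.84 and Per1 by 0.96, and Nr1d1 fell by 2.09. The differences from the young step were 0.39 (SE 0.15), 0.90 (0.39), 0.05 (0.38) and -0.54 (0.33), and none passed after adjustment. Zbtb16, Sgk1, Fkbp5 and Tsc22d3 rose by 2.83, 2.31, 1.51 and 1.43. Adrenal cortex genes were at most 7.44 CPM in the nephritic ZT12 libraries. The genes with the smallest p for the difference were Acyp1, Fgf9, 4930412C18Rik, Gnb5 and Cldn8. In young kidney their log2 differences were 0.06, -0.06, -0.09, 0.15 and -0.10, and in nephritic kidney they fell, with log2 differences of -0.67, -1.01, -1.57, -0.50 and -0.79.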

How the data were processed

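RNA was extracted from perfused whole kidneys and sequenced as mRNA libraries with 150-base reads. The authors aligned reads to mm10, with HISAT per the submitters' processing notes, and deposited raw read counts per gene from uniquely aligned reads with at most 2 mismatches. Groups were taken from the deposited labels. The labels do not state that each library is a separate mouse, so p-values measure the spread between these samples.

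Genes with at least 100 counts over the libraries of a fit were kept. Counts were scaled by TMM and tested with the quasi-likelihood test of edgeR 4.0.16 in R 4.3.3, with Benjamini-Hochberg adjustment over all genes tested. "Called" means an adjusted p of at most 0.05. Log2 differences are the fitted values of edgeR, and each SE was derived from the log2 difference and its F statistic. Correlations and limma used log2 CPM with a prior count of 2. Every p in the text is from edgeR unless limma 3.58.1 or DESeq2 1.42.0 is named. The scripts were tested on simulated data. The original library of ZT12RU was used and its repeat library was an alternative. Alternatives were other size factors, tools, filters, a required fold, other sets of libraries, each library left out and the title code as a block. The fits that address adrenal and liver RNA were chosen after seeing the data.

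Genes were named by rule. Core clock and clock output genes were named, with the 10 largest rises and 10 largest falls among genes called without overlap and with a mean of at least 1 CPM at either time, up to 4 genes of smallest p per other list, and the 5 genes of smallest p for the difference from nephritic kidney. A few genes that these rules would name are not reported here. Markers and further list members outside this rule, named as examples, were chosen after their values were seen. The members and the gene lists were chosen with earlier results of these data known. Promoter windows came from RefSeq, GRCm38.p6.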

Additional observations from a re-analysis of the deposited data

Results flagged for a closer look

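In groups of 4, a library was picked out when its gap to the nearest other library, as a share of the range of its group, exceeded Dixon's critical value. Chance picks out about 1 in 20 groups, and 19 of 270 gene groups and 3 of 12 marker groups were picked out.

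Among marker sums, ZT8LU held 12300 CPM of hepatocyte genes (others 179 to 296 CPM). ZT8LL held 52.4 CPM of B cell and plasma cell genes and 16.4 CPM of white adipocyte genes, against 5.52 to 8.75 CPM and 56.7 to 59.9 CPM in the other ZT8 libraries.

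ZT8LU was the highest ZT8 library for Dpys (39.5 CPM), Hsd11b1 (108 CPM), Nfil3 (8.92 CPM), Cox11 (25.2 CPM) and Dbh (0.0653 CPM), and the lowest for Tsc22d3 (40.3 CPM) and Slc2a4 (51.9 CPM). ZT8LL was the highest for Cry1 (4.78 CPM) and Ndrg1 (2240 CPM) and the lowest for Cd14 (7.04 CPM) and Me1 (189 CPM), and ZT8RL was the lowest for Klf15 (133 CPM).

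At ZT12, ZT12RU was the lowest for Usp2 (207 CPM), Creld2 (33.6 CPM) and Gstt3 (77.9 CPM) and the highest for Slco3a1 (90.1 CPM). ZT120 was the highest for Agbl2 (2.35 CPM), Slc2a2 (107 CPM) and Sult1c2 (78.4 CPM).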

How the results depend on the processing

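The 1175 calls were 1195 with RLE size factors, 1198 with limma, 1012 without a filter, 1087 with the repeat library of ZT12RU, 1293 with all 30 young libraries and 2175 with DESeq2 (1212 higher, 963 lower). Testing against a minimum fold rather than against no change left 125 (85 and 40). Leaving out 1 library gave 495 to 1173 calls, 272 to 657 higher and 223 to 516 lower. Of the alternatives chosen after seeing the data, the Cyp11a1 and Alb covariates left 271 (175 higher, 96 lower), leaving out ZT12RL, ZT12LU and ZT120 left 9 (8 and 1), and both sets without those and ZT8LU left 222 (140 and 82). In the last, Creld2, Hspa5, Hyou1 and Manf reversed without passing, at -0.0372, -0.0209, -0.0056 and -0.2771 on the log2 scale. The causes were not tested.

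With the title code as a replicate block the 6 libraries that share codes gave 394 calls (239 higher, 155 lower), against 548 (318 and 230) without it. Deviations correlated at 0.464, -0.24 and 0.542 for the shared codes RU, RL and LU, so the codes were not taken to pair samples.

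Leaving out 1 library gave 386 to 1238 calls from ZT0 to ZT4, 502 to 1214 from ZT4 to ZT8, 680 to 1745 from ZT8 to ZT12, 134 to 355 from ZT12 to ZT16, 63 to 553 from ZT16 to ZT20 and 413 to 976 from ZT20 to ZT0. ZT8 to ZT12 had the most calls in 25 of 27 settings. No setting left out ZT12RL, ZT12LU and ZT120 together, so the rank without their adrenal RNA was not tested. The nephritic step gave 3967 calls with set 1 added and 4425 to 6448 without 1 library. Its difference from young gave 750 with DESeq2, 71 with set 1 added 0 to 574 without 1 library and 0 (731 at an unadjusted p under 0.05, edgeR) without ZT8LU, ZT12RL, ZT12LU and ZT120.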
